A study of Mus musculus with 12 samples.

Results

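Calpains are calcium-activated cysteine proteases, and calpastatin is the dedicated protein inhibitor of the classical calpains, those built on CAPN1 or CAPN2. The genes described here were the 9 calpain-system genes named by symbol in the deposited count table (*Capn1*, *Capn2*, *Capn3*, *Capn5*, *Capn6*, *Capn7*, *Capn10*, the small-subunit gene *Capns1* and the calpastatin gene *Cast*), out of 55487 gene identifiers. They were measured in mouse lenses 7 days after birth, by sequencing poly-A RNA of 12 libraries (4 genotypes, 3 libraries each). Per the study's methods each library was a pool of 4 male and 4 female lenses. The genotypes were wild-type, *Trpm3*-KO (a *Trpm3* allele targeted by homologous recombination, KO below), and the mutants *Trpm3*-I/M and *Trpm3*-M/M (I/M and M/M below), which were heterozygous and homozygous for a CRISPR knock-in isoleucine-to-methionine substitution in TRPM3, a calcium-permeable cation channel. All mice were on the B6J background. The KO allele carries a reporter and selection cassette and can still give fusion transcripts, so that counts over the whole *Trpm3* gene need not vanish. All alleles were germline, so lens epithelium, lens fibers and any attached tissue carried them alike.

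The classical calpains are heterodimers of a large catalytic subunit (CAPN1 in μ-calpain, CAPN2 in m-calpain) and the common small subunit CAPNS1. Calcium binding brings the parts of their catalytic core together, and calpastatin, whose inhibitory domain is repeated along the protein, binds and blocks the calcium-loaded enzyme. CAPN3 is the calpain of skeletal muscle, and the rodent lens makes shorter products of the same gene, of which Lp82 is the best known. CAPN5, CAPN6, CAPN7 and CAPN10 lack the calcium-binding penta-EF-hand domain of the classical enzymes, and CAPN6 also lacks the catalytic cysteine. In the lens, calpains are known for cutting crystallins, beaded filament and membrane proteins during fiber maturation and in calcium-overload cataract.

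The coding sequence around the active site is printed because the gene with the largest change among the 9, *Capn6*, differs from the others there. Each line is a stretch of 63 bases of the coding strand, read from a GENCODE vM21 transcript, with the codon of the catalytic cysteine, or the codon aligned to it, in capitals.
*Capn1*: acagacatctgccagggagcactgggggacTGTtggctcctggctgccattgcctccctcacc
*Capn2*: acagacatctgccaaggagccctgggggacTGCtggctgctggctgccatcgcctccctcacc
*Capn3*: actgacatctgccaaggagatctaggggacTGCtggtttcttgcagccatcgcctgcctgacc
*Capn5*: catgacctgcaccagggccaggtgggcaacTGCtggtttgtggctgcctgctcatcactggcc
*Capn6*: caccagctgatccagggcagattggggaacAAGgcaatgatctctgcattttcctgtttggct
*Capn7*: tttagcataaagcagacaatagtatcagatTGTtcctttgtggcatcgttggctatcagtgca
*Capn10*: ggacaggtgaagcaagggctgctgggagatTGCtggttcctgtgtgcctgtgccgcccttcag
The cysteine codons TGC and TGT stood at this place in 6 of the 7 large-subunit genes, and *Capn6* had AAG. Over these 63 bases the identity to *Capn2* was 92.1% for *Capn1*, 84.1% for *Capn3*, 60.3% for *Capn5*, 57.1% for *Capn10*, 42.9% for *Capn6* and 36.5% for *Capn7*. In the inhibitor gene *Cast*, the core of the inhibitory repeat was found at 2 places of a coding transcript, at codons 281 and 691, and the matching codons are in capitals in both stretches. Only 1 exact pattern was searched, so repeats that vary from it are not among these matches.
*Cast* first match: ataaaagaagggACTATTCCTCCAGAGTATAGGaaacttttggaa
*Cast* second match: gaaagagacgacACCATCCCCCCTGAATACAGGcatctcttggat

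Coordinates are those of GRCm38. *Capn1* lies on chromosome 19 (5988545 to 6015897, minus strand), *Capn2* on chromosome 1 (182467260 to 182517608, minus) and *Capns1* on chromosome 7 (30186936 to 30198811, minus). *Cast* lies on chromosome 13 (74692368 to 74808810, minus), *Capn3* on chromosome 2 (120456019 to 120504913, plus) and *Capn5* on chromosome 7 (98121559 to 98178274, minus). *Capn6* lies on chromosome X (143802231 to 143827414, minus), *Capn7* on chromosome 14 (31336638 to 31371986, plus) and *Capn10* on chromosome 1 (92934376 to 92947941, plus). Counts were summed over the whole gene by the authors' counting.

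The total counted on genes was 56162182 to 57481006 in wild-type, 56945063 to 60992877 in KO, 68589080 to 82090262 in I/M and 65454183 to 73875066 in M/M libraries. Levels are given as CPM, the count divided by the library total and by a TMM scaling factor, which were 0.828 to 0.905 in wild-type and 1.22 to 1.27 in M/M. The crystallin genes took 61.0 to 63.9% of wild-type counts and 49.4 to 51.3% of M/M counts, so the scaling matters, and with library size as the only scaling the median gene moved by 0.50 on the log2 scale in M/M against wild-type. The targeted gene, *Trpm3*, was at 250.6 to 285 CPM in wild-type and 89.9 to 99.8 CPM in KO libraries, in the direction of the labels. Summed markers of lens fibers (41590 to 47220 CPM) and lens epithelium (885 to 939 CPM) were present in wild-type, as the tissue label says. One library was in doubt as a pool of both sexes: I/M replicate 3 held 0.072 CPM (5.01 counts) of *Xist*, the X-inactivation RNA, whereas the other 11 libraries held 45.8 to 304.9 CPM of it. It also held the highest levels of the Y-linked genes *Ddx3y* (27.2 CPM), *Eif2s3y* (27.98 CPM), *Kdm5d* (7.64 CPM) and *Uty* (6.27 CPM). Results for the X-linked *Capn6* are therefore also given without that library. In these whole-lens pools, fewer cells of a type and less RNA per cell cannot be told apart. Nothing in the labels says that the libraries of a genotype came from separate litters, so p-values measure the spread between these pools.

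All 9 genes passed the filter on low counts (CPM of at least 5 in at least 3 libraries), *Capn6* only through the mutant libraries. In M/M against wild-type, 6 of the 9 changed at FDR ≤ 0.05 in the quasi-likelihood test of edgeR, against 62.7% of all 8984 genes tested, so the share was near the background. *Capn1*, *Capns1*, *Cast* and *Capn6* were higher, and *Capn3* and *Capn10* were lower (31.4% of all genes were higher and 31.4% lower). The call of *Capn3* and the other calls named below depended on the scaling. One of the 9, *Capn6*, also passed FC ≥ 2, against 8.95% of all genes. The libraries of the 2 genotypes did not overlap for 6 of the 9 genes, against 65.2% of all genes. The median log2 fold change was -0.03 over the 9 and -0.004 over all genes. In I/M against wild-type, 4 of the 9 were higher and 0 lower (3 and 1 without I/M replicate 3), against 32.6% of all genes changed (17.3% higher, 15.3% lower), *Capn6* alone passed FC ≥ 2, against 3.33%, and the libraries did not overlap for 6 of the 9, against 44.6%. In KO against wild-type, edgeR called 0 of the 9, against 4.36% of all genes (2.16% higher and 2.2% lower, 0.568% past FC ≥ 2), and DESeq2 also called 0, whereas 1 gene, *Cast*, had an unadjusted p under 0.05. In M/M against I/M, 5 of the 9 changed, against 51.3% of all genes: 3 were higher (25.6% of all genes) and 2 lower (25.7%), 1 passed FC ≥ 2 (4.7%), and 6 did not overlap (60.5%). The 3 comparisons with wild-type share the wild-type libraries, and they are not independent of each other.

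**Figure D1:**
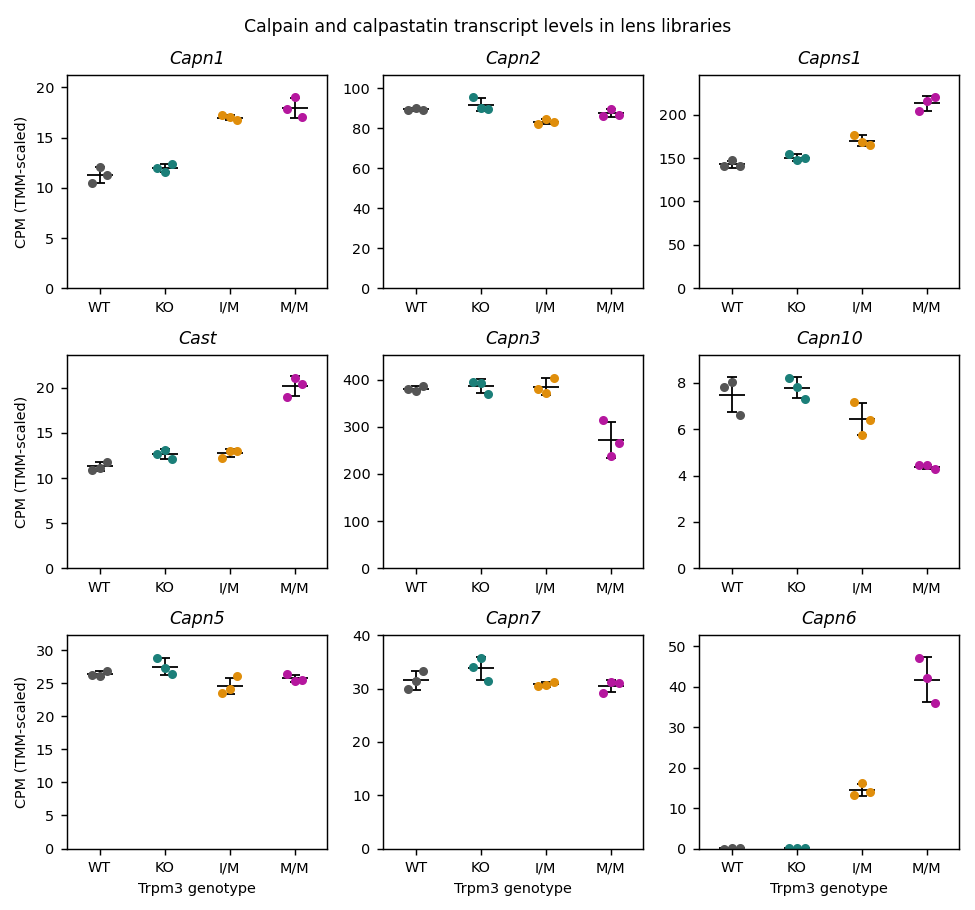
Transcript level of each of the 9 genes (y axis, CPM scaled by TMM factors, starting at 0) in the 3 libraries of each genotype (x axis). Points are libraries and bars are the mean ± SD (n = 3). *Capn6* sat below 0.19 CPM in every wild-type and KO library and between 36.1 and 47.2 CPM in M/M, whereas *Capn2*, *Capn5* and *Capn7* stayed within a narrow band under TMM scaling. With library size as the only scaling, which moved the median gene by 0.50, *Capn3* was not called in M/M against wild-type (log2 fold change 0.025).

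Of the classical large subunits, *Capn1* was higher in both mutant genotypes, and edgeR with TMM scaling did not call *Capn2* in any of the 4 comparisons, whereas DESeq2 and library size alone did in some. *Capn1*, the large subunit of μ-calpain, was at 10.5, 12.1 and 11.3 CPM in the wild-type libraries and at 12, 11.6 and 12.4 CPM in KO. It was at 17.2, 17.1 and 16.7 CPM in I/M and at 17.9, 19 and 17.01 CPM in M/M. Every mutant library lay above every wild-type and KO library, and the libraries of the mutant genotypes overlapped each other. The log2 fold change against wild-type was 0.67 ± 0.06 (SE; FDR 3.75e-07, edgeR) in M/M, a 1.59-fold difference, and 0.59 (FDR 5.51e-06) in I/M. Between the mutant genotypes *Capn1* differed by 0.08 on the log2 scale, with a 95% interval of -0.04 to 0.20 (FDR 0.25, edgeR). With library size as the only scaling that difference was 0.39 (FDR 3.53e-05).

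*Capn2*, the large subunit of m-calpain, was the more abundant of the pair per kb of exon and lay in a narrow band. It was at 89.4, 90.0 and 89.0 CPM in wild-type, 95.5, 90.2 and 89.8 CPM in KO, 82.0, 84.7 and 83.3 CPM in I/M and 86.3, 89.7 and 86.9 CPM in M/M. The I/M libraries lay below all wild-type libraries, and the M/M libraries overlapped them. The log2 fold change was -0.03 in M/M, with an interval of -0.11 to 0.06 (FDR 0.543, edgeR), and -0.10 in I/M, with an interval of -0.19 to -0.02 (FDR 0.0662). DESeq2 called the second difference (FDR 0.033), and with library size alone *Capn2* in M/M was at 0.48 and was called higher.

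The common small subunit rose with the number of mutant alleles. *Capns1*, which stabilises both classical enzymes, was at 141, 147.8 and 140.5 CPM in wild-type and 154, 147 and 150.1 CPM in KO. It was at 177, 169 and 165 CPM in I/M and at 204, 215 and 219.9 CPM in M/M, so that wild-type, I/M and M/M did not overlap. The log2 fold change was 0.25 ± 0.05 (FDR 0.000799, edgeR) in I/M and 0.57 ± 0.05 (FDR 1.25e-07) in M/M, and M/M exceeded I/M by 0.32 (FDR 5.42e-05).

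The inhibitor gene rose mainly in the homozygotes. *Cast* was at 10.9, 11.1 and 11.8 CPM in wild-type, 12.7, 13.1 and 12.1 CPM in KO, 12.2, 13.0 and 13.0 CPM in I/M and 18.99, 21.1 and 20.4 CPM in M/M. Every library of the other 3 genotypes lay under every M/M library. The log2 fold change against wild-type was 0.84 ± 0.06 (FDR 2.98e-08, edgeR) in M/M, a 1.79-fold difference, and that against I/M was 0.66 (FDR 5.11e-07). In I/M against wild-type the log2 fold change was 0.18 (FDR 0.032, edgeR), a call lost with DESeq2 (FDR 0.0551), without a filter on low counts (FDR 0.0502) and without any one of 4 libraries: wild-type replicate 1 (FDR 0.11) or 2 (FDR 0.0949) and I/M replicate 2 (FDR 0.106) or 3 (FDR 0.0882). KO libraries also lay above all wild-type libraries of *Cast*, the only one of the 9 genes for which they did not overlap (23.2% of all genes did not), and the log2 fold change there was 0.16, with an interval of 0.04 to 0.29 (FDR 0.149, edgeR). *Erap1* lies on the other strand and shares 834 bases of exon with *Cast*, and its mean level was 6.38 CPM in wild-type and 8.82 CPM in M/M. Whether the counting used strand was not stated, and the part of *Erap1* in the *Cast* counts was not tested.

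**Figure D2:**
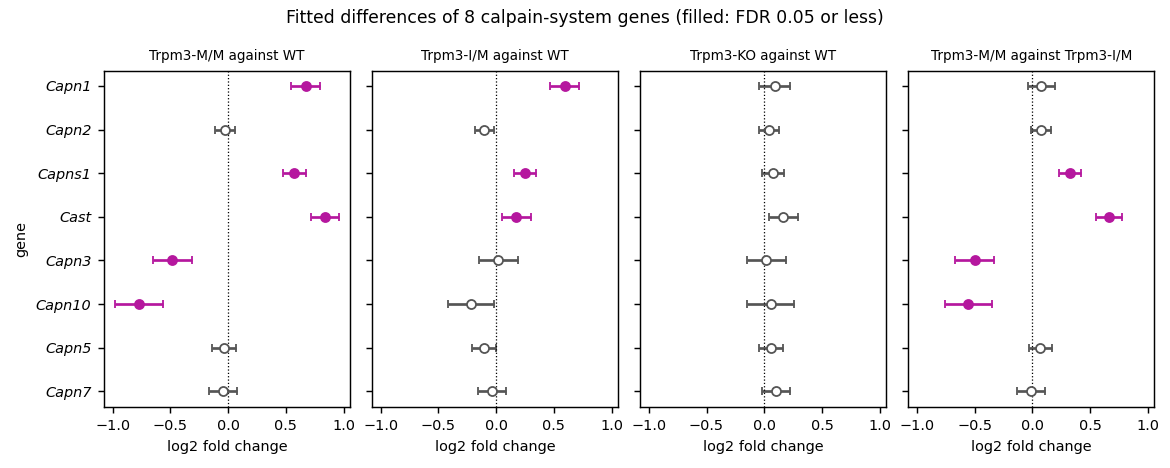
Log2 fold change (x axis) of 8 of the 9 genes in the 4 comparisons of genotypes, with 95% intervals from the edgeR fit. Filled points passed FDR ≤ 0.05, and *Capn6* is left out because its log2 fold change of 8.67 would set the scale. *Cast*, *Capn1* and *Capns1* lay to the right and *Capn10* and *Capn3* to the left in M/M against wild-type. With library size as the only scaling, which moved the median gene by 0.50, *Capn3* lay at 0.025.

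Ratios taken within a library do not depend on how libraries are scaled to each other. They are given per kb of exon and as a description, with no test. The summed level of *Capn1* and *Capn2* was 18.1, 18.4 and 16.9 times that of *Cast* in the wild-type libraries, a mean of 17.8 ± 0.78 (SD, n = 3), and averaged 16.4 in both KO and I/M. In M/M it averaged 10.9 ± 0.46, and its range of 10.6 to 11.4 did not overlap that of any other genotype. The ratio of *Capn1* to *Capn2* was 0.22 to 0.25 in wild-type, 0.24 to 0.26 in KO, 0.38 to 0.40 in I/M and 0.37 to 0.40 in M/M. That ratio therefore split the libraries into mutant and not, whereas the ratio to the inhibitor set the homozygotes apart. The level of *Capns1* over the summed large subunits averaged 3.31 in wild-type, 3.37 in KO, 3.77 in I/M and 4.49 in M/M. Without division by length the first ratio averaged 8.94 in wild-type and 5.24 in M/M, and with the length of the longest coding transcript 14.3 and 8.43, so its size depends on the length used whereas the order of these genotypes does not. These are ratios of transcripts, and no protein or protease activity was measured.

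**Figure D3:**
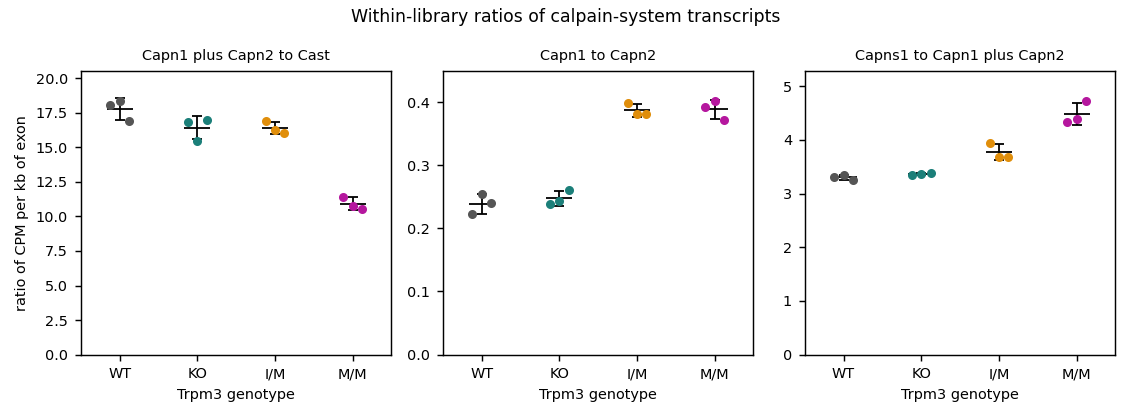
Within-library ratios of CPM per kb of exon (y axes, starting at 0) by genotype, with points for libraries and bars for the mean ± SD (n = 3). The large subunits over *Cast* averaged 17.8 in wild-type and 10.9 in M/M, *Capn1* over *Capn2* averaged 0.24 in wild-type and 0.39 in both mutant genotypes, and *Capns1* over the large subunits averaged 3.31 in wild-type and 4.49 in M/M.

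*Capn3*, the source of the lens form Lp82, had the highest level per kb of exon of the 9 in wild-type lenses. Under TMM scaling it was lower only in the homozygotes. With library size as the only scaling, which moved the median gene by 0.50, *Capn3* was not called in M/M against wild-type (log2 fold change 0.025, FDR 0.767, edgeR). It was at 380.6, 375 and 386 CPM in wild-type, 396, 392 and 369 CPM in KO and 381, 371 and 404 CPM in I/M. In M/M it was at 314, 238.5 and 265 CPM, all below the other 9 libraries and with the widest spread of the 4 genotypes. The log2 fold change was -0.48 ± 0.08 (FDR 0.000129, edgeR) against wild-type and -0.50 (FDR 0.00016) against I/M, and in I/M against wild-type it was 0.02 with an interval of -0.15 to 0.19. Against I/M, *Capn3* was also called lower with library size alone. Summed lens fiber markers were at 22870 to 26190 CPM in M/M and 36030 to 38200 CPM in I/M, and none was at 0. In M/M 9 of the 11 fiber markers were lower than in wild-type and 1 higher, against 31.4% and 31.4% of all genes. Their part in the level of *Capn3* was not tested. *Ganc*, on the same strand, shares 386 bases of exon with *Capn3* and averaged 5.18 CPM in wild-type and 3.33 CPM in M/M.

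RefSeq gives *Capn3* 2 start sites 13316 bases apart, and of its 6 coding transcripts in GENCODE 2 start within 500 bases of the first and 4 within 500 bases of the second. Gene-level counts do not tell these apart. The windows from 220 bases before to 30 bases after each start are printed because they belong to the gene whose products differ by their first exon. Letters of the MAF recognition core TGCTGAC, a motif of lens transcription factors, are in capitals where they matched on either strand.
*Capn3* start 1 (GRCm38.p6 chr2:120463373-120463622, plus strand): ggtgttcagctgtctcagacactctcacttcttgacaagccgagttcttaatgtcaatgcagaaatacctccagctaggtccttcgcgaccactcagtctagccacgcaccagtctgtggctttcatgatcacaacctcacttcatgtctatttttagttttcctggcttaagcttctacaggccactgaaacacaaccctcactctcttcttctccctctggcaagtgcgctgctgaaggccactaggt
*Capn3* start 2 (GRCm38.p6 chr2:120476689-120476938, plus strand): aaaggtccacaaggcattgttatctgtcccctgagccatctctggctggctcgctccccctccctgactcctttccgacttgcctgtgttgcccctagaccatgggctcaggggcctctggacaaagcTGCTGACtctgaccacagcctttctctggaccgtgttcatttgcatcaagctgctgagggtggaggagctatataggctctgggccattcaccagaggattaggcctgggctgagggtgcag
The second window held 1 match, which began 92 bases before the start, and the first held none. Of 32851 RefSeq promoters, 3.99% hold this motif in the same window.

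The 5 genes most like *Capn3* over the 12 libraries, by Pearson's r of log2 CPM, were *Ahsa2* (r = 0.98), *Trim23* (r = 0.98), *Rbm4* (r = 0.98), *Nup50* (r = 0.98) and *Caprin2* (r = 0.97). Their mean levels in wild-type and M/M were 41.5 and 32.4 CPM for *Ahsa2*, 17.4 and 12.1 CPM for *Trim23*, and 1477 and 747 CPM for *Caprin2*. All 12 libraries fall into the same 4 genotypes, so these are descriptions of a shared pattern.

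Of the calpains without the penta-EF-hand domain, *Capn10* was lower in the homozygotes. *Capn10*, an atypical calpain studied as a diabetes susceptibility gene, was at 7.80, 8.05 and 6.62 CPM in wild-type, 8.22, 7.81 and 7.31 CPM in KO, 7.16, 5.76 and 6.42 CPM in I/M and 4.44, 4.43 and 4.28 CPM in M/M. Every M/M library lay below all others, and I/M overlapped wild-type. The log2 fold change was -0.77 ± 0.10 (FDR 1.01e-05, edgeR) in M/M against wild-type, and -0.26 (FDR 0.0161) with library size alone. It was -0.55 (FDR 0.000275) in M/M against I/M. In I/M against wild-type it was -0.22, with an interval of -0.42 to -0.02 (FDR 0.0944, edgeR), and it was called without wild-type replicate 3 (-0.30, FDR 0.0257) or without I/M replicate 1 (-0.30, FDR 0.0346).

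*Capn5* and *Capn7* were not called by edgeR under TMM scaling with all 12 libraries. *Capn5*, a calpain known for mutations in inherited uveitis, was at 26.1 to 26.9 CPM in wild-type, 26.4 to 28.9 CPM in KO, 23.6 to 26.0 CPM in I/M and 25.4 to 26.4 CPM in M/M. The log2 fold change was -0.04 in M/M, with an interval of -0.14 to 0.07, and -0.10 in I/M, with an interval of -0.21 to -0.002 (FDR 0.113, edgeR). *Capn5* in I/M was called lower without I/M replicate 3 (-0.15, FDR 0.0428). *Capn7*, which interacts with the ESCRT membrane-remodelling machinery, was at 29.9 to 33.4 CPM in wild-type, 31.4 to 35.8 CPM in KO, 30.5 to 31.3 CPM in I/M and 29.2 to 31.3 CPM in M/M. The interval of its log2 fold change was -0.17 to 0.07 in M/M and -0.16 to 0.08 in I/M. With library size alone both genes were called higher in M/M, *Capn5* by 0.47 and *Capn7* by 0.46 on the log2 scale, near the 0.50 by which the median gene moved.

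*Capn6*, the calpain with AAG in place of the cysteine codon, went from a few counts per library in wild-type to 3196 or more in M/M. The wild-type libraries held 0, 7 and 8 counts, or 0, 0.147 and 0.159 CPM, and the count of 0 allows up to 3 counts, or 0.059 CPM. KO libraries held 3, 9 and 10 counts, or 0.056, 0.163 and 0.188 CPM, and overlapped wild-type. I/M libraries held 972 to 1328 counts and were at 13.3, 16.1 and 14.01 CPM, and M/M libraries held 3196 to 3883 counts and were at 47.2, 42.1 and 36.1 CPM. The levels were thus near 0 in wild-type and KO, intermediate in I/M and high in M/M, without overlap from wild-type to I/M to M/M.

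The log2 fold change of *Capn6* against wild-type was 8.67 ± 0.26 (FDR 1.68e-11, edgeR) in M/M, with an interval of 8.11 to 9.23, and 7.14 ± 0.29 (FDR 1.32e-09) in I/M. These values rest on 15 counts in the 3 wild-type libraries. Without wild-type replicate 1, the library at 0, they were 8.07 and 6.54, and without wild-type replicate 3 the M/M value was 9.16. The difference between the mutant genotypes rests on full counts and was 1.53 ± 0.13 on the log2 scale (FDR 5.78e-07, edgeR), a 2.88-fold difference. In KO the log2 fold change was 0.42, with an interval of -1.23 to 2.08 (FDR 0.833, edgeR), so that no difference was detectable at this depth. Without I/M replicate 3, the library in doubt, the log2 fold change of *Capn6* was 7.17 (FDR 8.54e-09, edgeR) in I/M against wild-type and 1.504 (FDR 7.14e-06) in M/M against I/M.

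*Capn6* is a single-start gene in RefSeq, and its window is printed beside that of *Capn2*, which edgeR with TMM scaling did not call. These windows were chosen because both held the AP-1 motif TGANTCA. The same search found it at no RefSeq start of *Capn1*, *Capns1*, *Cast*, *Capn3*, *Capn7* or *Capn10*. Capitals mark matches on either strand of TGANTCA, the CCAAT box (CCAAT), the GC box (GGGCGG), the TATA box (TATAAA), the cyclic AMP response element (TGACGTCA) and the MAF core.
*Capn6* (GRCm38.p6 chrX:143827383-143827632, minus strand): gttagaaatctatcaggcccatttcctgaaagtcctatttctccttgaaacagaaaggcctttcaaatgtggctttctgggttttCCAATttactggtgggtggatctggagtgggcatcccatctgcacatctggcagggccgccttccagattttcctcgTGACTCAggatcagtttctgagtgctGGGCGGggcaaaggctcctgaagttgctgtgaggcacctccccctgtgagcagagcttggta
*Capn2* (GRCm38.p6 chr1:182517581-182517830, minus strand): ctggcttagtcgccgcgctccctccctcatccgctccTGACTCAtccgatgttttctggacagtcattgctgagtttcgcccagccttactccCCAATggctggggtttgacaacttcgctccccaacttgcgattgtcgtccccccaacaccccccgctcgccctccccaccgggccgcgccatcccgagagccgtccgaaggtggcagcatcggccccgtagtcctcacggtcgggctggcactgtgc
In *Capn6* the CCAAT box, AP-1 motif and GC box began 135, 58 and 32 bases before the start, and in *Capn2* the AP-1 motif and CCAAT box began 183 and 127 bases before it. The same window holds TGANTCA in 6.68% of all RefSeq promoters, CCAAT in 33.5%, GGGCGG in 33.8%, TATAAA in 11.7% and TGACGTCA in 1.71%. These are matches of letters, and no binding was measured.

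The genes most like *Capn6* over the 12 libraries were *Lama4* (r = 0.99), *Uchl1* (r = 0.99), *Cntnap2* (r = 0.99), *Loxl2* (r = 0.99) and *Ngfr* (r = 0.98). *Lama4*, a laminin chain of vessel basement membranes, was the one that also went from near 0, with means of 0.129 CPM in wild-type, 0.160 CPM in KO, 9.24 CPM in I/M and 28.1 CPM in M/M. *Uchl1*, a neuronal deubiquitinase, was already at 381 CPM in wild-type and at 951 CPM in M/M, and *Loxl2*, a collagen-crosslinking oxidase, was at 25.8 and 175 CPM. Among the 9 genes, *Capn6* was most like *Capn1* (r = 0.99 over 12 libraries), whose level changed by far less. The libraries share genotypes, so these values describe one pattern, and none was tested.

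The summed levels of vascular, pericyte and macrophage markers in M/M lay above those in the other genotypes. The summed level of 10 vascular endothelial markers was 13.97 to 16.4 CPM in wild-type, 13.8 to 15.1 CPM in KO, 25.6 to 33.3 CPM in I/M and 67.1 to 78.7 CPM in M/M, and none of the 10 was at 0 in all libraries of a genotype. Of the 7 tested, 6 were higher in M/M, against 31.4% of all genes, such as *Cldn5* (0.121 to 10.98 CPM from wild-type to M/M), *Tie1* (0.060 to 5.51 CPM), *Pecam1* (0.678 to 6.50 CPM) and *Flt1* (0.061 to 9.40 CPM). The other, *Egfl7*, was not called there (0.06, FDR 0.577, edgeR). In I/M 6 were higher and 1, *Egfl7*, was lower (-0.30, FDR 0.0241, edgeR), against 17.3% and 15.3% of all genes. *Tek* was at 5.70, 12.5 and 11.8 CPM in wild-type, I/M and M/M. The 9 pericyte and smooth muscle markers summed to 75.4 to 91.6 CPM in wild-type, 100.3 to 126 CPM in I/M and 238 to 329 CPM in M/M. All 5 tested were higher in M/M, against 31.4% of all genes, and in I/M 3 were higher and 0 lower, against 17.3% and 15.3%. Fibroblast markers summed to 82.7 to 91.8 CPM in wild-type, 75.0 to 80.1 CPM in I/M and 146 to 224 CPM in M/M. In M/M 4 of 5 tested were higher and 1, *Pdgfra*, was lower (79.4 to 38.97 CPM from wild-type to M/M), against 31.4% and 31.4% of all genes. In I/M 1 of the 5 fibroblast markers was higher and 1 lower, against 17.3% and 15.3% of all genes, and 2 of the 9 were at 0 in wild-type. Macrophage markers summed to 0.436 to 0.688 CPM in wild-type and 9.31 to 17.7 CPM in M/M, and 1 of the 10 was at 0 in wild-type. The part of these cells in the levels of *Capn6*, *Capn1*, *Capns1* and *Cast* was not tested. Skeletal muscle markers, which bear on *Capn3*, summed to 2.06 to 2.48 CPM in wild-type and 3.201 to 4.22 CPM in M/M. Of these 11 markers, 4 were at 0 in wild-type, and none passed the filter on low counts. They did not move together: *Ttn* went from 0.626 to 2.205 CPM and *Myod1* from 0.370 to 0.030 CPM from wild-type to M/M.

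Levels between genes are compared per kb of exon. In wild-type the order was *Capn3* (75.7 CPM per kb), *Capns1* (57.8), *Capn2* (14.1), *Capn7* (6.45), *Capn5* (4.82), *Capn1* (3.37), *Capn10* (1.72), *Cast* (0.983) and *Capn6* (0.013), and no neighbours overlapped. The order was the same in KO. In M/M *Capns1* (86.0) stood above *Capn3* (54.2), and *Cast* (1.76) stood above *Capn10* (1.01). The libraries of *Capn6* (5.36) overlapped those of *Capn1* (5.37) and those of *Capn5* (4.70) there, and *Capn1* and *Capn5* did not overlap each other. With the length of the longest coding transcript in place of all exons, *Capn6* in M/M rose to rank 4, above *Capn7* (8.38 CPM per kb), at 11.7 CPM per kb. In I/M *Capn6* was at 1.86 CPM per kb of exon, between *Capn5* and *Capn10*.

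**Figure D4:**
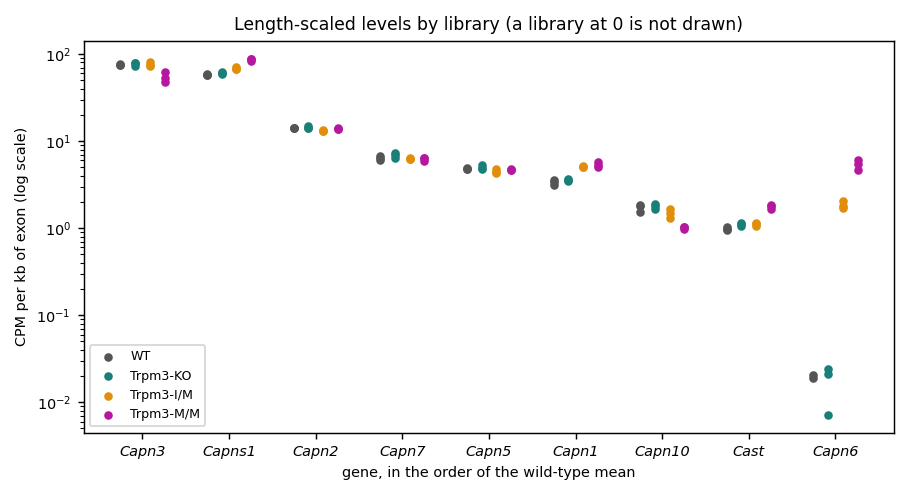
Level per kb of exon (y axis, log scale) of the 9 genes in the order of their wild-type means, with 1 point for each library coloured by genotype. The wild-type library with 0 counts of *Capn6* is not drawn. *Capn6* moved from below 0.03 CPM per kb in wild-type and KO to 4.63 to 6.06 CPM per kb in M/M, a range that overlapped *Capn1* and *Capn5*.

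Of the 7 other family members, 6 did not pass the filter on low counts. *Capn15*, the one that passed, was at 6.53 CPM in wild-type, 7.82 CPM in KO, 6.98 CPM in I/M and 6.77 CPM in M/M (FDR 0.0769 in KO, edgeR). *Capn8*, a calpain of the stomach, held 7 to 24 counts in wild-type and 4 to 6 in M/M, and in a fit without a filter its log2 fold change was -2.23 (FDR 5.76e-05, edgeR). *Capn9*, which works with *Capn8* in the stomach, held 2 to 8 counts in wild-type, 9 to 15 in KO, 23 to 32 in I/M and 17 to 27 in M/M. Without a filter *Capn9* was higher by 2.00 on the log2 scale in I/M (FDR 0.000193, edgeR) and by 1.37 in M/M (FDR 0.0155). *Capn11* held 4 to 23 counts and *Capn12* 1 to 9 counts in any library. *Capn13* was at 0 except for 2 counts in 1 M/M library, and *Capns2* held 0 to 2 counts.

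Transcripts of known calpain substrates in the lens were more often lower than higher under TMM scaling. With library size alone, which moved the median of all genes by 0.50, they were as often lower as higher. Of 24 tested in M/M against wild-type, 15 were lower and 4 higher (31.4% of all genes were lower and 31.4% higher), with a median log2 fold change of -0.54 against -0.004 over all genes. With library size alone 11 were lower and 11 higher, in a fit that called 7859 of all 8984 genes. The smallest FDR values were those of the fiber membrane protein gene *Lim2* (-0.84, FDR 7.05e-09, edgeR), the aquaporin gene *Mip* (-0.81, FDR 2.19e-08), *Cryba4* (-0.99, FDR 2.94e-08) and *Crybb3* (-0.96, FDR 5.84e-08), which encode β-crystallins. In I/M 13 of the 24 were lower and 2 higher, against 15.3% and 17.3% of all genes, and in KO edgeR called 0, against 4.36% of all genes.

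Genes of other proteases were read beside the calpains. Of 11 cathepsin and cystatin genes tested, 10 were higher and 0 lower in M/M against wild-type, with a median of 0.59 (31.4% of all genes were higher and 31.4% lower, with a median of -0.004). Among them *Ctsd*, a lysosomal aspartic protease, went from 256 to 497 CPM (0.96, FDR 1.69e-09, edgeR), *Ctsa* rose by 0.47 (FDR 7.62e-07), *Ctsc* by 2.85 (FDR 1.01e-06) and *Cstb*, a cysteine protease inhibitor, by 0.72 (FDR 1.31e-06). The summed macrophage markers stood at 0.436 to 0.688 CPM in wild-type and 9.31 to 17.7 CPM in M/M, and their part in these levels was not tested. In I/M 3 of the 11 were higher and 1, *Ctsc*, was lower (-1.06, FDR 0.0251, edgeR), against 17.3% and 15.3% of all genes. Of 9 genes of caspases, their activators and inhibitors tested, 3 were higher and 5 lower in M/M, against 31.4% and 31.4% of all genes. With library size alone 6 were higher and 0 lower, in a fit that called 7859 of all 8984 genes and moved their median by 0.50. The apoptosome gene *Apaf1* was higher (1.10, FDR 1.91e-06, edgeR), and *Casp9*, the initiator caspase that it activates, was lower with TMM scaling (-0.49, FDR 1.2e-05). In KO edgeR called 0 of both lists, against 4.36% of all genes.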

How the data were processed

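RNA of 12 lens libraries was sequenced after poly-A selection and library preparation with a TruSeq kit. The authors aligned and counted reads with the DRAGEN software (build mm10, Ensembl annotation per the paper's methods) and deposited estimated counts for each gene, not normalized and not pooled, and whether counting used strand was not given in the sources used here. The authors also deposited their own edgeR comparisons (CPM, log2 fold changes, p-values and adjusted p-values), which were not used beyond a check that all of its counts equaled those of the full table. The count table lists 55774 entries for 55487 identifiers, and the repeated entries of 168 identifiers were equal and used once. Whole counts had been assumed when the tests were chosen. The estimated counts (88.4% whole) were rounded to whole numbers.

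Genes with CPM ≥ 5 in at least 3 of 12 libraries (8984) entered one quasi-likelihood fit with TMM factors and genotype as the only factor, in edgeR 4.0.16 under R 4.3.3, with Benjamini–Hochberg adjustment over all tested genes in each comparison. A gene "changed" at FDR ≤ 0.05, and FC ≥ 2 is given beside it. Exon lengths and coordinates came from GENCODE vM21 (GRCm38), promoter windows from RefSeq (GRCm38.p6), in which 8 of the 9 genes matched and *Capn5* did not. Coding stretches were located with Biopython 1.88. Pearson's r used log2 CPM with a prior count of 2.

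Samples were grouped by the genotype label. Libraries of a genotype differed beyond sampling noise in all 12 pairs (chi-square per gene of at least 8.76) and were kept as separate replicates. The replicate numbers did not pair the libraries. The 9 genes and all gene lists were chosen with earlier results of these data known. Named were all 9 genes, each other family gene, up to 4 genes a list by smallest FDR in *Trpm3*-M/M against wild-type, and the 5 genes most like *Capn6* and *Capn3*. Some genes that this rule names are not reported here. Vascular markers were named as examples after their values were seen. Marker lists for photoreceptors, pigmented cells, cornea and red blood cells were also summed: in wild-type and *Trpm3*-M/M these were 14.9 to 16.3 and 45.2 to 51.4 CPM (photoreceptors), 3.13 to 3.71 and 2.95 to 3.52 CPM (pigmented cells), 0.550 to 0.833 and 3.90 to 9.03 CPM (cornea), and 1.22 to 11.9 and 12.4 to 14.95 CPM (red blood cells). Alternatives were other scalings, filters, DESeq2 1.42.0, the libraries compared only, a replicate block and each library left out. The procedure was checked on simulated counts. Floors cover counting error only.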

Additional observations from a re-analysis of the deposited data

How the results depend on the processing

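In *Trpm3*-M/M against wild-type, 6 of the 9 genes were called in each leave-one-out fit (6 to 6), as were 0 in *Trpm3*-KO (0 to 0). In *Trpm3*-M/M against *Trpm3*-I/M 5 were called (5 to 5), and in *Trpm3*-I/M against wild-type 3 to 5. Over all genes, these fits called 4749 to 5639 in M/M, 234 to 433 in KO and 2336 to 2831 in I/M against wild-type. In M/M against I/M they called 3590 to 4718, and 8454 to 8983 genes were tested. With FC ≥ 2 added to the main fit, 1 of the 9 was called in each of the 3 comparisons that had calls. The shares over all genes were 8.95% (M/M), 3.33% (I/M) and 4.7% (M/M against I/M). Library size as the only scaling shifted the median of all genes by 0.50 (M/M), 0.20 (I/M) and 0.05 (KO) against wild-type and by 0.31 in M/M against I/M. Under it *Capn2* (0.48), *Capn3* (0.025, FDR 0.767, edgeR), *Capn5* (0.47) and *Capn7* (0.46) changed sign in *Trpm3*-M/M against wild-type, *Capn3* without a call. *Capn7* also changed sign in *Trpm3*-I/M against wild-type (0.17) and in *Trpm3*-M/M against *Trpm3*-I/M (0.30). The latter comparison called all 9 genes, against 6814 of all 8984.

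Of 719 recomputed values for the 9 genes, 6 changed both sign and call, and 10 uncalled ones changed sign. At the same sign, 6 lost and 8 gained a call. The 6 with both changes were all under library size alone. Among them *Capn3* in *Trpm3*-M/M against wild-type lost its call, and the others, named above, gained one. The other calls lost were all those of *Cast* in *Trpm3*-I/M, given above. For the gene lists in *Trpm3*-M/M against wild-type, library size alone gave 1 other family gene higher, 11 substrates higher, and 6 genes higher and 0 lower among the caspases. Without a filter 1 other family gene was higher and 1 lower, and 9 caspase-list genes were higher (5 with CPM ≥ 1). Library size alone moved the median of all genes by 0.50 in this comparison. Without a filter 9323 of 32253 tested genes were called, and 7666 of 12638 with CPM ≥ 1, against 5637 of 8984. Those counts are thus not over the same genes as in the main fit, and the moves were not tested further. Left-out libraries gave 4 to 5 substrates higher and 15 to 16 lower, 2 to 3 caspase-list genes higher and 4 to 5 lower, 8 to 10 cathepsin-list genes higher and 0 lower. Those fits called 4749 to 5639 of all genes in either direction. The large subunits over *Cast* in wild-type, KO, I/M and M/M libraries averaged 8.94, 8.23, 7.88 and 5.24 without lengths, 14.4, 13.2, 11.8 and 7.86 with *Capn2* alone, and 14.3, 13.2, 12.7 and 8.43 with the longest coding transcript, which was chosen after seeing the data.

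Same-numbered replicates correlated at -0.264 to 0.149 in their deviations from the genotype means, 3 of 18 pairs best with their own number, so the numbers are only names. With the replicate number as a block, 5514 genes were called against 5637 without it in *Trpm3*-M/M against wild-type. The fit with the block called 2694 of all genes in I/M and 341 in KO against wild-type, and 4461 in M/M against I/M. The calls among the 9 genes were 6, 4, 0 and 5 in the 4 comparisons, as without the block. Depth limits *Capn6* in wild-type and KO libraries, which held 0 to 10 counts.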
